A study of Homo sapiens with 18 samples.

Results

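The 9 genes described here are GADD45A, GADD45B and GADD45G of the GADD45 family, BTG1 and BTG2 of the BTG family, the polo-like kinases PLK2 and PLK3, the cell cycle inhibitor CDKN1A and the ubiquitin ligase MDM2. They were taken by name from a table of 36684 gene symbols, and all 9 were among the 14557 genes with enough counts to be tested. The table holds RNA-seq read counts of Hep3B cells, a human liver cancer line. There were 6 groups of 3 libraries: untreated cells (Con), cells given free fatty acids (FFA) as a steatosis model (Model), FFA with the marine carotenoid fucoxanthin at 0.5, 1 or 2 μM (FUCO-0.5, FUCO-1 and FUCO-2), and FFA with resmetirom (RES), a drug that activates a thyroid hormone receptor. All groups are 1 cell line without a drug-only arm, so each drug was seen on top of FFA alone. The FFA concentration, the exposure times and the RES dose of these libraries are not given in the sources used here, and the replicates of a condition are called biological replicates in the study's methods.

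GADD45 proteins are small acidic stress proteins that bind and activate the kinase MAP3K4 upstream of p38 and JNK, and that also bind PCNA and the CDK1 and cyclin B complex. BTG1 and BTG2 are antiproliferative adaptors that bring the CCR4-NOT deadenylase to mRNAs, and PLK2 and PLK3 are kinases first known as products of serum-induced genes. CDKN1A encodes p21, which inhibits cyclin-dependent kinases, and MDM2 is a ubiquitin ligase that marks proteins for degradation. Most of these genes are induced by growth factor, stress or nutrient signals.

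Promoter letters are given for GADD45B, BTG2 and PLK2, because these 3 genes were higher in Model than in Con and lower than Model at every FUCO dose. RefSeq promoters of GRCh38.p14 were matched for 8 of the 9 members, all but GADD45A. Each line holds the 250 bases before the transcription start, 5′ to 3′ on the strand of the gene. Capitals mark matches to the motifs searched on both strands, other than the GC box, which is left in lower case. The stretches lie at chr19:2475877-2476126 (GADD45B, plus strand), chr1:203305269-203305518 (BTG2, plus strand) and chr5:58460087-58460336 (PLK2, minus strand).
GADD45B: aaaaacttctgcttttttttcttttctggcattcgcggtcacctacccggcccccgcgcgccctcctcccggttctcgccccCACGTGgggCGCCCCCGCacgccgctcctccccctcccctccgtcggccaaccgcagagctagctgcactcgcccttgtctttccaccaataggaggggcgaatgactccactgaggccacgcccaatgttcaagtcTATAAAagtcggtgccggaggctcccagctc
BTG2: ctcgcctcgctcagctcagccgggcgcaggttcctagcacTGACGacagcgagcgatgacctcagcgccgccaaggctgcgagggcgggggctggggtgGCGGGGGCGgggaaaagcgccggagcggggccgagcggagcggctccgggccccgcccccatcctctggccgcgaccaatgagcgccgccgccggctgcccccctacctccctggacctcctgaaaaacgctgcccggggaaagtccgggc
PLK2: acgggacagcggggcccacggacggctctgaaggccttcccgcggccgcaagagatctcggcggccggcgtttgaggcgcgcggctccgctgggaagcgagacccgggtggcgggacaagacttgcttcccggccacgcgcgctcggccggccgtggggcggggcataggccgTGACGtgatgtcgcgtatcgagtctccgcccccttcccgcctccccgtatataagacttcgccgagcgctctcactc

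MDM2 has more than 1 listed start, and a motif was counted for it if any of its promoters held it. The early growth response (EGR) motif, searched as GCGGGGGCG or GCGTGGGCG, was found for 2 of the 8 matched members. It lay from −159 to −151 on the minus strand in GADD45B and from −151 to −143 on the plus strand in BTG2, where it overlaps a GC box (GGGCGG). Of 35116 promoters of the same length, 5.77% hold it. GADD45B also has the E-box CACGTG from −168 to −163 and a TATAAA from −31 to −26, which 7.26% and 11.5% of promoters hold. The same E-box occurs in GADD45G from −143 to −138, and TATAAA in BTG1 from −33 to −28. TGACG, the core of the cAMP response element, occurs from −210 to −206 in BTG2, from −77 to −73 in PLK2 and at 2 places on the minus strand of BTG1, against 24.6% of promoters. The AP-1 motif TGAGTCA (4.95% of promoters) occurred in MDM2 alone, and not in all of its promoters. The GC box (45.0%) occurred in all members but GADD45B and GADD45G. The full cAMP response element TGACGTCA (1.85%), the serum response CArG box (1.29%), TGATGCAA (0.866%) and the kappaB site (5.91%) matched no promoter of the 8 members. These matches describe letters in a window of 300 bases and do not show binding.

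Library totals ran from 16916688 to 23083498 counts, so the least abundant member, GADD45G, rested on 32 to 210 counts a library and the most abundant, BTG1, on 2848 to 6092. All 10 hepatocyte and hepatoma markers looked at were present. Their summed level was 64220 to 72120 CPM (counts scaled to the size of each library) in Con, 53360 to 53750 in Model, 44590 to 56190, 47520 to 50000 and 35980 to 40540 at the rising FUCO doses and 15430 to 15860 in RES. Single markers differed widely in level: over the 18 libraries ALB ran from 7411 to 43310 CPM and FGB from 36.1 to 159 CPM. The sum thus follows the most abundant markers and does not show how each one changed between groups. Markers of other cell types summed to 4 to 5.49 CPM in Con, 13.3 to 22.7 CPM in Model and the FUCO groups and 8.26 to 9.91 CPM in RES, mostly LYZ, and COL3A1 and KRT5 were at 0 in all 18 libraries. The RES libraries stood apart on the first principal component, which held 47% of the variance, and Con replicate 1 differed from the other Con libraries by more than they did from each other (chi-square per degree of freedom of 15.3 and 13.1, against 2.29 between replicates 2 and 3). FUCO-2 replicate 1 (19.2 and 18.4, against 5.68) and FUCO-0.5 replicate 2 (10.4 and 17.8, against 5.81) stood apart from their groups in the same way. So did FUCO-1 replicate 3 (9.96 and 10.9, against 4.50). The part of these shifts in the results on the 9 genes was not tested. Values with and without single libraries stand beside the results they touch.

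**Figure D1:**
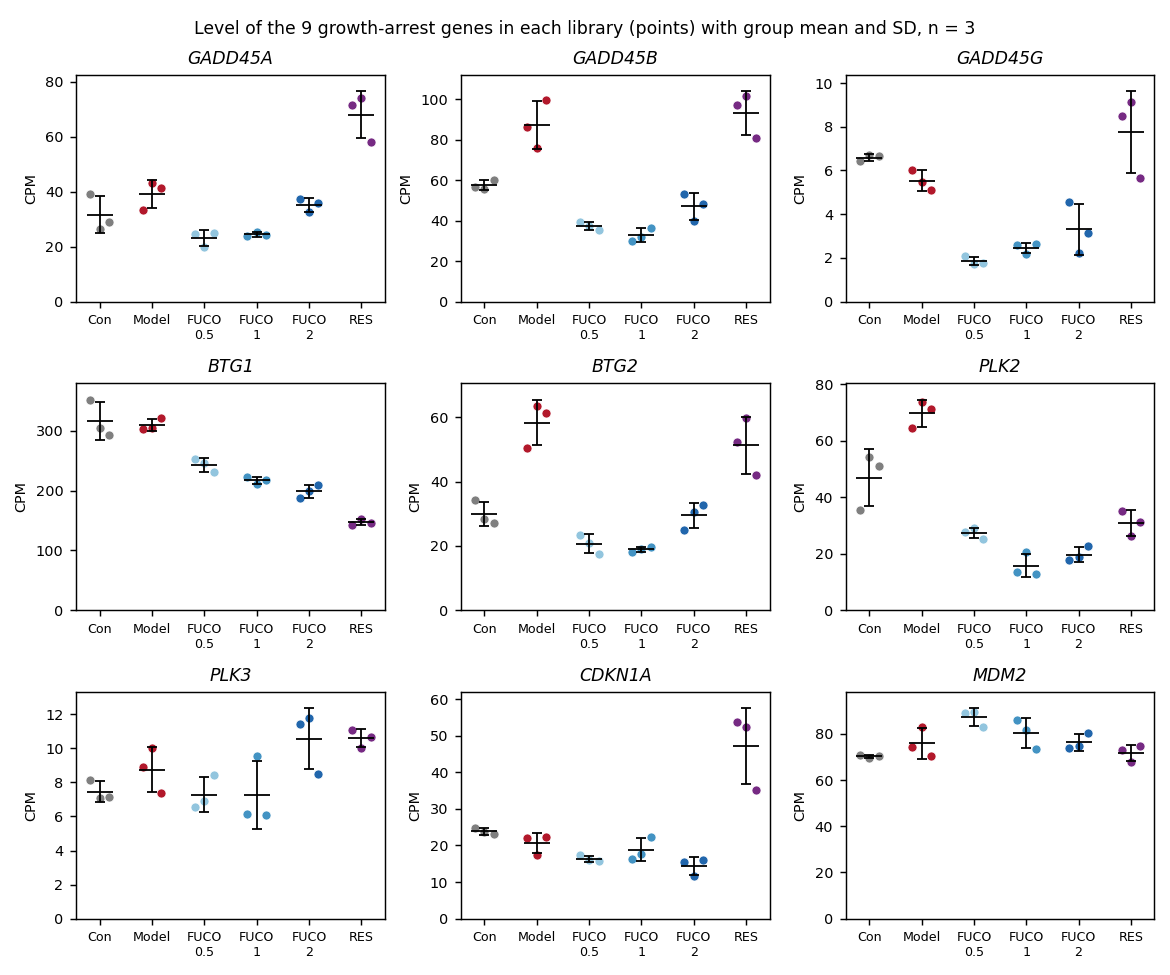
Level of each member in CPM (vertical axis, from 0) in each of the 18 libraries, by group. Coloured points are libraries, the black bar is the mean of 3 and the whiskers are its SD. GADD45B, BTG2 and PLK2 were high in Model and low in all 3 FUCO groups, CDKN1A and GADD45A were highest in RES, and MDM2 stayed between 68.0 and 89.6 CPM.

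To set the genes against each other, CPM was divided by the length of the canonical transcript. In Con the order was BTG1 at 68.3 ± 6.81 CPM per kilobase (SD, n = 3), GADD45B at 41.9 ± 1.84, GADD45A at 23.4 ± 5.01, PLK2 at 16.8 ± 3.60, CDKN1A at 11.3 ± 0.421, BTG2 at 10.98 ± 1.41, MDM2 at 9.38 ± 0.0751, GADD45G at 6.18 ± 0.139 and PLK3 at 3.19 ± 0.254. CDKN1A and BTG2, neighbours in this order, differed by less than the SD of BTG2, and PLK2 moved below BTG2 when the length of all exons was used. BTG1 led this order in Con, Model and every FUCO group, although in Model its 67.0 ± 2.34 was within the SD of GADD45B (63.6 ± 8.75). GADD45B led in RES with 67.8 ± 7.91 CPM per kilobase, ahead of GADD45A with 50.3 ± 6.33 and BTG1 with 31.9 ± 1.14. GADD45G was last at every FUCO dose and PLK3 in the other 3 groups.

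The first comparison asked what FFA did to these genes. BTG2, GADD45B and PLK2 rose, and no member was called lower. BTG2 was counted 594, 477 and 501 times in the Con libraries and 918, 1142 and 1133 times in the Model libraries, or 30.0 ± 3.84 and 58.4 ± 7.07 CPM (SD, n = 3). All 3 Model libraries lay above all Con libraries. The log2 fold change, given here and below ± its standard error, was 0.96 ± 0.13, with an adjusted p of 7.4e-06 from edgeR's quasi-likelihood test with Benjamini-Hochberg adjustment over all 14557 genes, the test behind every adjusted p below unless another is named.

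GADD45B (chromosome 19, 2476127 to 2478257 of GRCh38.p14) went from 978, 930 and 1115 counts in Con to 1573, 1361 and 1840 in Model, a log2 fold change of 0.60 ± 0.11 (adjusted p = 0.000259). PLK2 (chromosome 5, 58453982 to 58460086) had 614, 910 and 941 counts in Con and 1175, 1323 and 1312 in Model, with a log2 fold change of 0.57 ± 0.14 (adjusted p = 0.00578). For both genes the groups did not overlap, although Con replicate 1 was well below the other Con libraries for PLK2. In bulk libraries such as these, a change in the make-up of the culture and a change per cell cannot be told apart.

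The other 6 members were not called. GADD45A went from 31.6 ± 6.78 to 39.3 ± 5.14 CPM with overlapping groups and a log2 fold change of 0.31 ± 0.13 (adjusted p = 0.0885). Con replicate 1 held the highest of the 3 Con values, 39.2 against 26.4 and 29.1 CPM, and without it the log2 fold change of GADD45A was 0.50 (adjusted p = 0.00391). The call was also made without Model replicate 1 (0.42, adjusted p = 0.0403) and with no filter on low counts (0.31, adjusted p = 0.0163). CDKN1A differed by −0.21 on the log2 scale (95% interval −0.49 to 0.08), MDM2 by 0.11 (−0.04 to 0.26), BTG1 by −0.03 (−0.17 to 0.11), GADD45G by −0.25 (−0.62 to 0.11) and PLK3 by 0.23 (−0.09 to 0.55). The groups of GADD45G and CDKN1A did not overlap: the lowest Con library had 6.42 CPM of GADD45G and 23.04 CPM of CDKN1A, and the highest Model library 6.03 and 22.4 CPM.

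The 3 higher calls among 9 members compare with 8.43% of all tested genes called higher in Model than in Con. No member was called lower by edgeR (0 at an unadjusted p under 0.05) or by DESeq2 (0), against 9.12% of all genes. No member passed the study's threshold for a differentially expressed gene (DEG), an adjusted p under 0.05 and a log2 fold change beyond 1 in either direction, by edgeR or DESeq2, against 1.95% of all genes. BTG2 passed it without Con replicate 1 (1.07) or Model replicate 1 (1.06). The median log2 fold change of the members was 0.23 and that of all tested genes 0.0011.

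**Figure D2:**
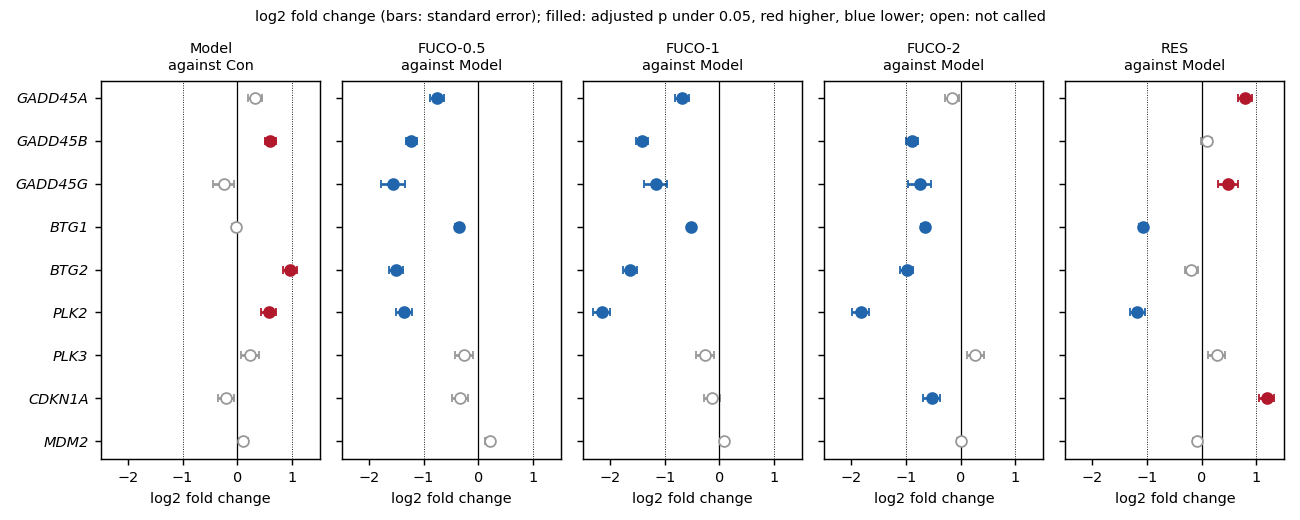
log2 fold change (horizontal axis) of the 9 members in 5 comparisons, with the standard error as a bar. Filled red points were called higher and filled blue points lower at an adjusted p under 0.05, open points were not called, and dotted lines mark a log2 fold change of 1 in each direction. The 3 FUCO panels hold 6 blue points each and no red point, and the RES panel holds 3 red and 2 blue points.

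FUCO was then compared with Model at each dose. These 3 comparisons share the Model libraries with each other, with the comparison of RES and with that of FFA, so a high or low Model library moves all of them. GADD45B, GADD45G, BTG1, BTG2 and PLK2, 5 of the 9 members, were lower than Model at all 3 doses. The share of all tested genes lower at all 3 doses was not counted, and shares for each dose stand below. GADD45A was lower at 0.5 and 1 μM and CDKN1A at 2 μM. PLK3 and MDM2 were called at no dose.

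Among the GADD45 genes, GADD45B fell at every dose. It was counted 715, 719 and 631 times at 0.5 μM, 604, 586 and 640 times at 1 μM, and 920, 750 and 835 times at 2 μM, against 1361 to 1840 in Model. Every FUCO library was below every Model library. The levels were 37.4 ± 2.02, 32.8 ± 3.40 and 47.1 ± 6.62 CPM, or 42.8%, 37.6% and 54.0% of the Model mean of 87.2 ± 12.0. The log2 fold changes were −1.22 ± 0.11 (adjusted p = 4.46e-08), −1.41 ± 0.11 (adjusted p = 2.25e-09) and −0.89 ± 0.11 (adjusted p = 2.56e-06).

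GADD45G (chromosome 9, 89605012 to 89606555), a family member that also arrests growth when forced into cells, is a low gene here. Its counts were 110, 98 and 94 in Model and fell to 38, 33 and 32 at 0.5 μM, 52, 40 and 46 at 1 μM, and 79, 42 and 54 at 2 μM. FUCO-2 replicate 1 stood above the other FUCO-2 libraries but below all Model libraries. The log2 fold changes were −1.56 ± 0.22 (adjusted p = 7.75e-05), −1.16 ± 0.21 (adjusted p = 0.00137) and −0.75 ± 0.20 (adjusted p = 0.0101). The call at 2 μM was lost without FUCO-2 replicate 2 (GADD45G −0.52, adjusted p = 0.0857).

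GADD45A (chromosome 1, 67685201 to 67688334), the family member first known as induced by DNA damage, was counted 609, 773 and 764 times in Model. At 0.5 μM it had 450, 377 and 449 counts and at 1 μM 482, 463 and 423, with log2 fold changes of −0.76 ± 0.13 (adjusted p = 0.000880) and −0.68 ± 0.13 (adjusted p = 0.00191). At 2 μM the counts were 647, 611 and 621, or 35.2 ± 2.45 CPM against 39.3 ± 5.14 in Model. That difference of −0.16 (95% interval −0.40 to 0.09, adjusted p = 0.409) was not called, and the groups overlapped.

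Of the BTG genes, BTG2 (chromosome 1, 203305519 to 203309602) had the larger fold changes. BTG2 counts were 426, 402 and 314 at 0.5 μM, 367, 347 and 343 at 1 μM, and 435, 574 and 568 at 2 μM, against 918 to 1142 in Model. The Model and FUCO libraries did not overlap. BTG2 stood at 35.3%, 32.4% and 50.5% of its Model mean, with log2 fold changes of −1.50 ± 0.13 (adjusted p = 3.80e-08), −1.63 ± 0.13 (adjusted p = 4.06e-09) and −0.99 ± 0.13 (adjusted p = 5.93e-06).

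BTG1 (chromosome 12, 92140278 to 92145846, minus strand), the member with the most counts, moved by smaller steps, from 310 ± 10.8 CPM in Model to 243 ± 11.1, 218 ± 5.78 and 199 ± 10.9 CPM at the 3 doses. Its lowest Model library had 303 CPM and its highest FUCO library 252 CPM. The log2 fold changes of BTG1 were −0.35 ± 0.07 (adjusted p = 0.00729), −0.51 ± 0.07 (adjusted p = 6.33e-05) and −0.64 ± 0.07 (adjusted p = 1e-06). The call at 0.5 μM was lost without Model replicate 3 (BTG1 −0.32, adjusted p = 0.0646) or FUCO-0.5 replicate 3 (−0.32, adjusted p = 0.0545).

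PLK2 had the largest fall of the 9 members at 1 and 2 μM, and passed the DEG threshold at every dose. Its counts were 503, 554 and 453 at 0.5 μM, 276, 374 and 227 at 1 μM, and 307, 352 and 391 at 2 μM, against 1175 to 1323 in Model. It was at 39.2%, 22.5% and 28.2% of the Model mean. The log2 fold changes were −1.35 ± 0.15 (adjusted p = 1.45e-06), −2.15 ± 0.15 (adjusted p = 4.35e-10) and −1.82 ± 0.15 (adjusted p = 9.85e-09).

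PLK3, its paralogue (chromosome 1, 44800377 to 44805990), did not follow. It was counted 119 to 151 times at 0.5 μM, 107 to 175 times at 1 μM and 147 to 221 times at 2 μM, against 136 to 180 times in Model, and the groups overlapped at each dose. The differences of PLK3 were −0.26 (95% interval −0.59 to 0.06), −0.27 (−0.59 to 0.05) and 0.27 (−0.04 to 0.58). At 1 μM the intervals of PLK2 (−2.45 to −1.85) and PLK3 did not meet.

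CDKN1A (chromosome 6, 36676463 to 36687332) was counted 402, 314 and 413 times in Model and 269, 217 and 278 times at 2 μM. No FUCO-2 library reached the lowest Model library, 17.5 CPM, and the log2 fold change was −0.52 ± 0.15 (adjusted p = 0.0158). The call of CDKN1A was lost without Model replicate 1 (−0.47, adjusted p = 0.0660), Model replicate 3 (−0.46, adjusted p = 0.0745) or FUCO-2 replicate 2 (−0.39, adjusted p = 0.109). At 0.5 and 1 μM it was not called, at −0.34 (adjusted p = 0.380) and −0.14 (adjusted p = 0.701).

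MDM2 (chromosome 12, 68808172 to 68850686) stayed at 87.2 ± 3.79, 80.3 ± 6.46 and 76.3 ± 3.58 CPM across the doses, against 75.8 ± 6.51 in Model. Its differences were 0.20 (95% interval 0.05 to 0.35, adjusted p = 0.255), 0.08 (−0.06 to 0.23) and 0.01 (−0.14 to 0.16). MDM2 shares 8490 bases with a carboxypeptidase gene on the opposite strand that had 181 to 400 counts a library, and whether the counting used the strand is not given in the sources used here. The overlaps of BTG1, PLK3 and CDKN1A were with genes of at most 24 counts.

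At 0.5 μM, 6 of 9 members were called lower, against 1.16% of all tested genes, and none higher by edgeR (1 at an unadjusted p under 0.05) or by DESeq2 (0), against 0.289% of all genes. At 1 μM 6 were lower against 2.32% of all genes, and none was higher by edgeR (0 at an unadjusted p under 0.05) or DESeq2 (0), against 0.893%. At 2 μM 6 were lower against 9.71%, and none was higher by edgeR (0 at an unadjusted p under 0.05) or DESeq2 (0), against 10.8%. The DEG threshold was passed by GADD45B, GADD45G, BTG2 and PLK2 at 0.5 μM (4 members, against 0.268% of all genes), by the same 4 at 1 μM (against 0.495%) and by PLK2 alone at 2 μM (against 1.6%). At 2 μM BTG2 also passed it without Model replicate 1 (−1.08), FUCO-2 replicate 2 (−1.01) or FUCO-2 replicate 3 (−1.07), and GADD45G without FUCO-2 replicate 1 (−1.05). The median log2 fold change of the 9 members was −0.76, −0.68 and −0.64 at the 3 doses, and that of all tested genes was between −0.0017 and 0.0096. In all 3 comparisons the called members had no overlap with Model. The share of called genes without overlap was not counted over all genes, so this is a description only.

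**Figure D3:**
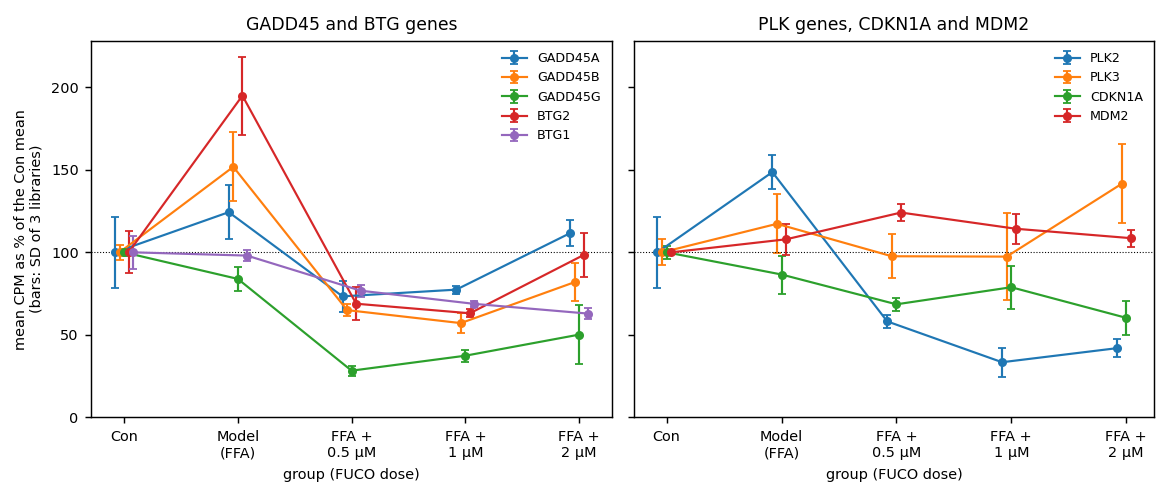
Mean CPM of each member as a percent of its Con mean (vertical axis) in Con, Model and the 3 FUCO groups (horizontal axis), with the SD of 3 libraries as a bar and the Con level as a dotted line. GADD45A, GADD45B and BTG2 were lowest at 0.5 or 1 μM and higher again at 2 μM, BTG1 was lower at each dose than at the one before, and PLK2 was at 33.4% of Con at 1 μM.

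The steps between doses were tested directly. From 0.5 to 1 μM no member was called by edgeR (2 at an unadjusted p under 0.05), and DESeq2 called 1, PLK2. Over all genes edgeR called 0.00687% at this step. PLK2 had 27.3 ± 1.86 CPM at 0.5 μM and 15.7 ± 4.12 CPM at 1 μM, with all FUCO-1 libraries below all FUCO-0.5 libraries, and a log2 fold change of −0.80 ± 0.16 (adjusted p = 0.0966). Leaving out FUCO-1 replicate 2, the highest of that group, brought PLK2 to −1.03 (adjusted p = 0.0162), and the call was also made without Con replicate 1 or FUCO-2 replicate 1 and in the fits with DESeq2, with 2 groups only and with no filter on low counts.

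From 1 to 2 μM 4 members rose, GADD45A, GADD45B, BTG2 and PLK3, against 6.3% of all genes called in either direction, and none fell by edgeR (1 at an unadjusted p under 0.05) or DESeq2 (0). GADD45B went from 32.8 to 47.1 CPM (0.52 ± 0.11, adjusted p = 0.00556) and BTG2 from 18.9 to 29.5 CPM (0.64 ± 0.13, adjusted p = 0.00477), both with no overlap. GADD45A rose from 24.4 to 35.2 CPM (0.53 ± 0.13, adjusted p = 0.0137) without overlap, but the call was lost without FUCO-1 replicate 1 (GADD45A 0.51, adjusted p = 0.0557) or replicate 3 (0.52, adjusted p = 0.0626). The PLK3 groups overlapped, and its call (0.54 ± 0.16, adjusted p = 0.0453) was lost in 12 of 25 alternative fits, with a highest adjusted p of 0.215 for PLK3 without FUCO-1 replicate 3. BTG1 (−0.13, adjusted p = 0.329) and PLK2 (0.33, adjusted p = 0.254) were not called at this step.

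The FUCO groups were also set against Con. At 0.5 μM 8 of 9 were called, against 21.9% of all genes: MDM2 was higher (0.31 ± 0.08, adjusted p = 0.00398) and all others but PLK3 were lower, with GADD45G the lowest at 28.3% of its Con mean (log2 fold change −1.82 ± 0.22, adjusted p = 1.38e-06). At 1 μM 6 were lower, against 10.1% of all genes lower and 18.3% called in either direction. Among them were GADD45B (−0.81, adjusted p = 1.00e-05), BTG2 (−0.66, adjusted p = 0.000947) and PLK2 (−1.58, adjusted p = 6.58e-08). At 2 μM 5 were called, against 24.8%: GADD45G, BTG1, PLK2 and CDKN1A were lower and PLK3 higher.

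At 2 μM BTG2 had 29.5 ± 4.01 CPM against 30.0 ± 3.84 in Con, a difference of −0.02 (95% interval −0.28 to 0.23). GADD45B was at 47.1 ± 6.62 against 57.5 ± 2.52 CPM, and its difference of −0.29 (adjusted p = 0.0522) was called in 9 of 25 alternative fits. PLK2 remained at 42.0% of Con (−1.25 ± 0.15, adjusted p = 1.18e-06). For GADD45A against Con, the call at 0.5 μM (−0.45, adjusted p = 0.0143) was lost without Con replicate 1 (GADD45A −0.26, adjusted p = 0.128), without FUCO-0.5 replicate 2 (−0.34, adjusted p = 0.0905) and in the fit of these 2 groups alone (−0.44, adjusted p = 0.0598), and that at 1 μM (−0.37, adjusted p = 0.0473) in 14 of 25 fits, with −0.18 (adjusted p = 0.313) without Con replicate 1. The PLK3 call at 2 μM against Con (0.50 ± 0.16, adjusted p = 0.0255) was lost without Con replicate 2 or 3 and without FUCO-2 replicate 1 or 2, with adjusted p values for PLK3 of 0.0747 to 0.115.

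With RES 5 of the 9 genes were called against Model. CDKN1A, GADD45A and GADD45G were higher and BTG1 and PLK2 lower. CDKN1A, the gene of the inhibitor p21, was counted 1331, 972 and 753 times in the RES libraries, or 53.7, 52.3 and 35.1 CPM, against 22.0, 17.5 and 22.4 CPM in Model. RES replicate 3 was the lowest of its group and still above every library of the other groups. The fold was 2.28 (log2 fold change 1.19 ± 0.14, adjusted p = 1.68e-07).

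GADD45A had 1769, 1379 and 1248 counts with RES, or 68.0 ± 8.56 CPM, and was 1.73 times its Model level (log2 fold change 0.79 ± 0.12, adjusted p = 7.74e-06). All RES libraries were above all Model libraries. GADD45G, with 210, 170 and 121 counts, overlapped with Model because RES replicate 3 (5.64 CPM) lay below Model replicate 1 (6.03 CPM). Its call (0.49 ± 0.18, adjusted p = 0.0262) was lost in the fits without Model replicate 2 or 3 or without RES replicate 1 or 2, with adjusted p values for GADD45G of 0.0655 to 0.140.

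BTG1 fell to 143, 153 and 146 CPM with RES, 47.6% of Model (log2 fold change −1.07 ± 0.07, adjusted p = 1.02e-11), the lowest BTG1 level of the 6 groups. PLK2 was at 35.3, 26.2 and 31.3 CPM, 44.4% of Model (−1.17 ± 0.14, adjusted p = 2.85e-07). GADD45B (0.09, 95% interval −0.11 to 0.30), BTG2 (−0.19, −0.42 to 0.05), PLK3 (0.28, −0.03 to 0.58) and MDM2 (−0.08, −0.22 to 0.07) were not called. PLK3 was called in the fit of these 2 groups alone (0.28, adjusted p = 0.0441).

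RES moved a large part of the transcriptome, with 24.4% of all tested genes called higher and 25.1% lower than Model, so 3 members higher and 2 lower of 9 are near the background. The median log2 fold change of the members was 0.09 and that of all genes 0.0023. The DEG threshold was passed by 3 members, CDKN1A, BTG1 and PLK2, against 9.91% of all genes. Against Con 7 members were called, against 57.3% of all genes. GADD45A (1.11, adjusted p = 4.42e-08), CDKN1A (0.98, adjusted p = 1.72e-06), BTG2 (0.78, adjusted p = 1.07e-05), GADD45B (0.69, adjusted p = 4.66e-06) and PLK3 (0.51, adjusted p = 0.00909) were higher, and BTG1 (−1.10, adjusted p = 3.95e-12) and PLK2 (−0.60, adjusted p = 0.00104) lower. RES and FUCO were each compared with Model and Con, and not with each other. The dose of RES is not given here, so the 2 drugs are not at matched doses.

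The list of relatives of the members also holds CDKN2A, CDKN2B, CDKN2C and CDKN2D, cell cycle inhibitor genes outside the family of CDKN1A. Of its 12 tested genes, 2 were higher and 5 lower in Model than in Con, against 8.43% and 9.12% of all tested genes. At 2 μM 2 were higher and 3 lower (all genes 10.8% and 9.71%), and with RES 3 higher and 3 lower (24.4% and 25.1%). At 0.5 and 1 μM none was called by edgeR (3 and 1 at an unadjusted p under 0.05) or DESeq2 (0 and 0), against 1.45% and 3.21% of all genes in either direction. These counts are not read as a result about the relatives. CDKN2B, which encodes the CDK4 and CDK6 inhibitor p15, had 23.8 ± 1.22 CPM in Con, 10.7 ± 1.01 in Model, 24.7 ± 3.74 at 2 μM and 18.5 ± 1.87 with RES. It thus fell with FFA (−1.15 ± 0.13, adjusted p = 9.52e-07) and was 2.30 times its Model level in FUCO-2 (adjusted p = 5.11e-07), the opposite of BTG2 and GADD45B in both comparisons. CDKN2B lies within an antisense gene of 74 to 187 counts, so its reads are uncertain without strand.

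CDKN1C, a sibling of CDKN1A that encodes the inhibitor p57, was at 171 ± 16.2 CPM in Model and 32.0 ± 1.35 with RES (−2.42 ± 0.11, adjusted p = 1.10e-14), while CDKN1A rose. CDKN1B, the gene of p27, was higher in Model than in Con (0.23, adjusted p = 0.0469) and with RES (0.22, adjusted p = 0.0237). TOB1, an antiproliferative BTG relative, was lower in Model than in Con with overlapping groups (−0.35, adjusted p = 0.0365) and lower with RES (−0.36, adjusted p = 0.0132). PLK1, the mitotic kinase of the PLK family, was higher in Model (0.42, adjusted p = 0.00624) and lower at 2 μM (−0.43, adjusted p = 0.00506). BTG4 had no count in any library, and PLK5 was too low to test.

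Calls among partners of these proteins are given as counts, beside the shares of all tested genes. Those shares were 8.43% higher and 9.12% lower in Model than in Con. In either direction they were 1.45% at 0.5 μM and 3.21% at 1 μM. At 2 μM 10.8% were higher and 9.71% lower than Model, and with RES 24.4% and 25.1%. The counts are not read as a result about the partners. Of 12 tested GADD45 partners, 1 was higher in Model than in Con, the cyclin gene CCNB1 (0.46, adjusted p = 8.98e-05). None was called at 0.5 or 1 μM by edgeR (1 and 1 at an unadjusted p under 0.05) or DESeq2 (0 and 0), and at 2 μM CCNB1 (−0.25) and MAPK8 (−0.32) were lower. With RES CCNB1 was higher (0.49) and MAP2K7 (−0.25) and MAPK14 (−0.21) lower. MAP3K4, the kinase that GADD45 proteins activate, was called in none of the 5 comparisons. These genes, and those of the next 2 lists below a log2 fold change of 1, are named after their values were seen, because each count is 5 or fewer.

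Of 13 CCR4-NOT deadenylase genes and partners, through which BTG1 and BTG2 act, 1 was lower in Model than in Con, the poly(A)-binding protein gene PABPC1 (−0.37, adjusted p = 0.000847). None was called at 0.5 μM (0 at an unadjusted p under 0.05, 0 by DESeq2) or 1 μM (2, and 0 by DESeq2). At 2 μM PABPC1 was higher (0.49) and CNOT6 (−0.23) and CNOT9 (−0.24) lower, and with RES 4 were higher and 2 lower. Of 14 G1 cyclins, kinases and pocket proteins, CCNE1 (0.56) and CDK6 (0.25) were higher in Model than in Con. None of the 14 was called at 0.5 μM (4 at an unadjusted p under 0.05, 0 by DESeq2), RB1 was lower at 1 μM (−0.78, adjusted p = 0.0103), 3 were higher and 2 lower at 2 μM, and 3 higher and 2 lower with RES.

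Of 20 tested genes known from quiescence or growth arrest, 5 were higher and 4 lower in Model than in Con. At 0.5 μM 7 were lower and none higher by edgeR or DESeq2 (9 of 20 at an unadjusted p under 0.05 in either direction), at 1 μM 9 were lower and 1 higher, at 2 μM 10 lower and 2 higher, and with RES 8 lower and 5 higher. The median log2 fold change of the list was 0.06 in Model against Con, −0.14, −0.32 and −0.39 at the rising doses and −0.13 with RES. IER3, an immediate early gene, rose in Model (1.13 ± 0.21, adjusted p = 0.000502) and was lower at 0.5 μM (−1.31, adjusted p = 0.000590). PPP1R15A, also known as GADD34 and a regulator of the stress phosphatase, fell from 186 CPM in Model to 83.2 at 0.5 μM (−1.16 ± 0.07, adjusted p = 1.74e-10) and 74.8 at 1 μM, and stood at 137.5 CPM at 2 μM and 181 CPM with RES.

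The transcription factor gene KLF6 was at 887 CPM in Model and 422, 279 and 369 CPM at the 3 doses, and the co-regulator gene CITED2 at 110, 49.96, 40.4 and 42.6 CPM. TSC22D3, a glucocorticoid-induced gene, had 24.1 CPM in Model and 9.51 and 12.0 CPM at 1 and 2 μM. The arrestin-like TXNIP, which restrains glucose uptake, was lower than Model at 2 μM (−1.68 ± 0.32, adjusted p = 0.000539) and higher with RES (1.47 ± 0.27, adjusted p = 7.06e-05). With RES NDRG1, induced by hypoxia, was lower (−1.76, adjusted p = 5.92e-10) and the transcription factor gene KLF4 higher (1.52, adjusted p = 7.07e-05). Over the other 4 lists and the 5 comparisons, list medians lay between −0.18 and 0.14, and shares of all genes called stand above for each comparison. The quiescence list was drawn up with earlier results of these data known, so its direction is not independent of them.

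**Figure D4:**
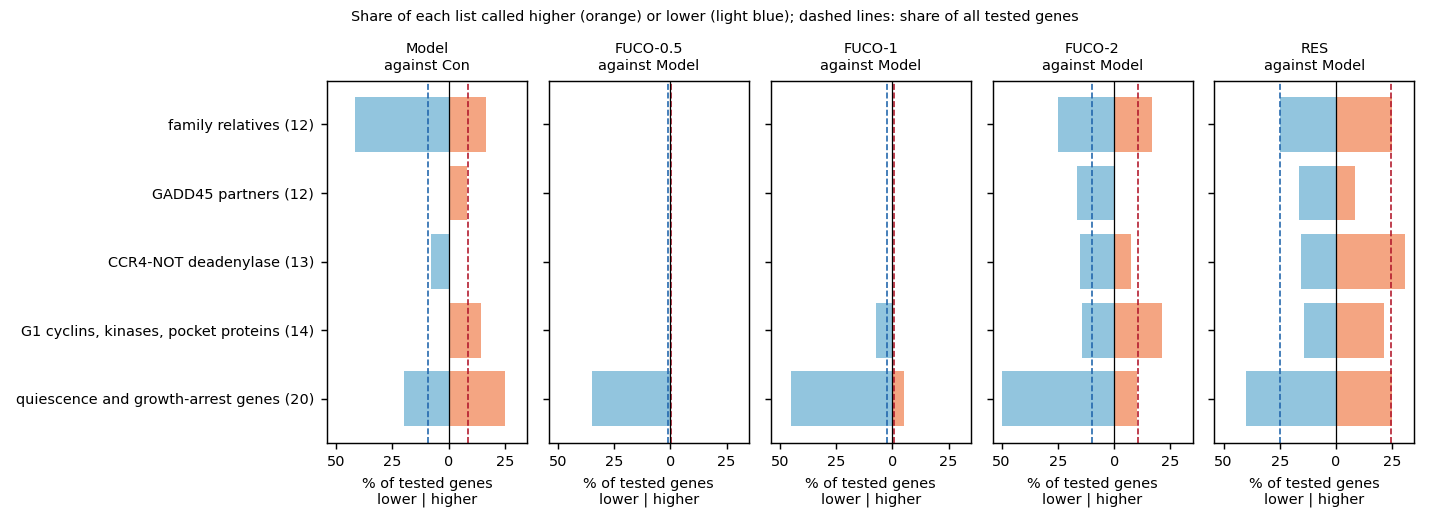
Share of the tested genes of 5 lists (number tested in brackets) called higher (orange, to the right) or lower (light blue, to the left) in 5 comparisons, in percent. Dashed lines mark the shares among all 14557 tested genes. The list of quiescence and growth-arrest genes has the longest bar to the left at all 3 FUCO doses, and 3 of the 5 lists show no bar at 0.5 and 1 μM.

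To describe which genes followed the members, Pearson correlations of log2 CPM with each of the 7 members called in Model against Con or against Model (all but PLK3 and MDM2) were taken over the 18 libraries. The libraries share groups and 1 sequencing run, so no p is given. GADD45B and BTG2 shared their first 2 neighbours: EGR2, a zinc finger immediate early factor, at r = 0.964 and 0.963, and DUSP1, a phosphatase of MAP kinases, at 0.958 and 0.941. The third was MCL1, a survival gene of the BCL2 family, for GADD45B (0.946) and GADD45B itself for BTG2 (0.936). Taken as deviations from the group means, BTG2 and GADD45B correlated at 0.197, far below the value over all libraries. Over all pairs of members these values ran from −0.574 (GADD45B and MDM2) to 0.877 (GADD45B and CDKN1A). They were not taken for EGR2, DUSP1 or MCL1. EGR2 had 2.87 ± 0.929 CPM in Con, 7.07 ± 1.31 in Model, 0.976 ± 0.270, 0.604 ± 0.0787 and 1.58 ± 0.393 at the FUCO doses and 5.59 ± 1.17 with RES. Its FUCO levels rest on few reads, 13 to 23, 10 to 14 and 24 to 35 counts a library at the rising doses, against 107 to 157 in Model.

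The nearest genes to PLK2 were PNRC1 (0.932), HES1 (0.926), a Notch-responsive repressor, and KLF6 (0.913). GADD45A was nearest to GDF15 (0.945), the growth factor gene EREG (0.934) and EGR1 (0.932). GDF15, a stress-induced cytokine, was at 294 ± 22.96 CPM in Model, 132 ± 22.1 at 0.5 μM, 143 ± 7.49 at 1 μM, 326 ± 77.1 at 2 μM and 681 ± 92.7 with RES. GADD45G was nearest to DNAJB9 (0.921), a chaperone gene of the endoplasmic reticulum, LMO4 and ADM. BTG1 was nearest to UFC1 (0.955), the fatty acid binding protein gene FABP1 (0.953) and PTHLH (0.947), and CDKN1A to the fibrinogen gene FGA (0.948), BACE1 and GLE1. BACE1 and GLE1 were at 39.9 and 59.3 CPM in RES, against group means of 24.5 to 29.6 and 34.7 to 40.9 CPM elsewhere. The correlations of members with these nearest genes were not taken without the RES libraries.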

How the data were processed

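RNA-seq libraries of Hep3B cells in 6 groups of 3 were used, with groups and replicate numbers from the library titles. The authors made the deposited counts with fastp, STAR (GRCh38.p14) and featureCounts, and left them without normalization. Whether strand was used and how reads with several matches were treated is not given in the sources used here. CPM was computed with TMM library sizes. Tests used edgeR 4.0.16 in R 4.3.3 (filterByExpr with a minimum count of 10, TMM, the quasi-likelihood test on the 18 libraries together, group as the sole term), and p was adjusted by Benjamini-Hochberg over 14557 genes. A call is an adjusted p under 0.05, and a DEG also has a log2 fold change beyond 1. The study's methods use DESeq2, which was run here as an alternative (1.42.0), beside edgeR on 2 groups, RLE scaling, other filters, a replicate block, no RES libraries and each library left out in turn. Scripts were tested on simulated data. The members, gene lists and tests were chosen with earlier results of these data known. By rule, named list genes passed the DEG threshold with a mean of at least 1 CPM, at most 4 per list and comparison, and any gene of the list of relatives could be named. Genes behind counts of 5 or fewer were named besides, after their values were seen. Results that rest on 1 item and the lists built on it are not reported here. The 3 genes nearest to each member called in Model against Con or against Model are named. Positions and promoters are from RefSeq GRCh38.p14, and transcript lengths from GENCODE v44. Reads carry no molecular identifiers, so counting intervals would cover counting error only.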

Additional observations from a re-analysis of the deposited data

How the results depend on the processing

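The calls of the 9 members were recomputed under DESeq2, edgeR on 2 groups, RLE scaling, no filter, at least 10 counts in every library, a replicate block, no RES libraries and without each library in turn. Of 2457 values (9 members, 11 comparisons), 2367 kept direction and side of the threshold, 45 lost and 28 gained the call, and 17 changed sign without a call. With the DEG threshold in place of the adjusted p alone, the count of called members was 0 in Model against Con, 1 at 2 μM and 3 with RES against Model. The shares of all tested genes past it were 1.95%, 1.6% and 9.91%. Against Con the count of members was 1, 2 and 2 at the rising FUCO doses, against 2.38%, 2.34% and 3.17% of all genes. With RES against Con it was 2, against 13.3%, and from 1 to 2 μM it was 0, against 0.577%. Without single libraries the counts past the DEG threshold were 0 to 1 in Model against Con (1 without Con replicate 1 or Model replicate 1), 1 to 2 at 2 μM against Model, 1 to 2 at 2 μM against Con, 1 to 3 with RES against Con, and 0 to 1 from 0.5 to 1 μM (PLK2 without FUCO-1 replicate 2). GADD45G fell short of it at 2 μM against Con without Con replicate 2 or 3, FUCO-1 replicate 1 or FUCO-2 replicate 2 or 3, and in 4 other fits. With RES against Con GADD45A fell short without Con replicate 2, and CDKN1A passed without Con replicate 1 or RES replicate 3. At an adjusted p under 0.05 alone, 1 member was called from 0.5 to 1 μM under DESeq2, 2-group edgeR and no filter. Without single libraries this count was 0 to 1. From 1 to 2 μM it was 2 to 5 without single libraries, lowest without FUCO-1 replicate 1 or 3. Without single libraries BTG1 in Model against Con ranged from −0.084 to 0.054, positive without Con replicate 1, and MDM2 at 2 μM against Model from −0.043 to 0.079, lowest without Model replicate 3. The cause of these shifts was not tested. Whether replicate numbers pair the libraries is not settled by these values. Deviations of the 45 same-numbered pairs correlated between −0.204 and 0.194 (median 0.0239), against a median of −0.0226 for pairs with other numbers. Of 18 libraries, 10 correlated best with their own number. With a replicate block 1 member was called at an adjusted p under 0.05 from 0.5 to 1 μM, PLK2 at −0.81 (adjusted p = 0.0388). In that fit GADD45B at 2 μM was called below Con. Calls on GADD45G and PLK3 rest on 32 to 274 counts a library.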
